A study of Pan troglodytes with 8 samples.

Results

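The ELAVL and CELF genes encode 2 families of RNA-binding proteins, and their transcripts were followed over the cell populations of chimpanzee cerebral organoids. The members were chosen by name: 4 ELAVL genes (ELAVL1 to ELAVL4) and 6 CELF genes (CELF1 to CELF6), of 60583 named rows in the count table made on the chimpanzee genome panTro6. All 10 passed the filter on low counts, as did 35382 rows in all, and all 10 were also among the 18137 rows of a second table made from the same libraries on the human genome hg38. Organoids came from SandraA, a single chimpanzee induced pluripotent stem cell line, and were collected at week 8 of culture (± 3 days). Cells were separated by fluorescence-activated sorting into 4 populations with 2 libraries each, and RNA of 10000 cells went into a library. N stands for neurons positive for BCL11B, a transcription factor of deep-layer cortical neurons. The abbreviation bIP is used for basal intermediate progenitors, which divide to give neurons, bRG for basal radial glia, stem cells located away from the ventricle, and aRG for apical radial glia, stem cells that line the ventricle. No population carried a treatment or an engineered allele according to the labels. Nothing in the labels shows that the 2 libraries of a population derive from independent cultures. The p-values therefore measure only how far these libraries differ, which may be technical.

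ELAVL proteins, also called Hu proteins, bind AU-rich and U-rich stretches of messenger RNA and are best known for stabilising transcripts with such stretches in the 3′ untranslated region. ELAVL1 (HuR) is made in nearly all cells, while ELAVL2 (HuB), ELAVL3 (HuC) and ELAVL4 (HuD) are known as neuronal proteins that act on splicing, polyadenylation, stability and translation. CELF proteins bind GU-rich stretches, regulate alternative splicing in the nucleus and promote deadenylation and decay in the cytoplasm. CELF1 and CELF2 are made in many tissues, and CELF3 to CELF6 are known mainly from the nervous system.

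Library totals on panTro6 were 24649971 to 33245892 counts, and those on hg38 were 11635116 to 16447389. The sorted populations were checked against marker lists, as sums of CPM (read counts relative to library size) on panTro6. The 10 neuron markers summed to 4810 to 5027 CPM in N, 3041 to 3993 in bIP, 1052 to 1737 in bRG and 707 to 983 in aRG. Of the 9 tested, 0 were called in N relative to bIP. MAP2 (1126 CPM in bIP and 981 in N), RBFOX3 (200 and 137), TUBB3 (25.8 and 18.1) and NEFL (1.74 and 0.989) averaged higher in bIP. DCX, STMN2, SNAP25, SYT1 and INA averaged higher in N. The 7 intermediate progenitor markers summed to 2669 to 3567 CPM in bIP and to at most 710 in any other library. EOMES, at 1357 and 1540 CPM, was the largest part of the bIP sums, while SSTR2 and NEUROG2 made up most of the N sums. PENK was low throughout and averaged less in bIP (1.21 CPM) than in aRG (2.53). The 10 radial glia markers summed to 784 to 1270 CPM in N, 1200 to 1342 in bIP, 2829 to 2867 in bRG and 3955 to 4183 in aRG. PTPRZ1 of the radial glia list made up most of the N sums, at 1082 and 688 CPM, and was at 566 and 698 CPM in bIP. It was called higher in N than in aRG, while the other 8 radial glia markers tested were called lower. NEFM, a neurofilament gene, and HES5, a Notch target of radial glia, were listed at 0 in every library on panTro6, while hg38 gave NEFM 153 to 1119 counts and HES5 8 to 1349 counts per library. BCL11B was at 488 and 590 CPM in N, 286 and 348 in bIP, 59.0 and 113 in bRG, and 42.9 and 73.9 in aRG, so the sort marker of N was also high in bIP. The aRG libraries also held transcripts of other tissues: 6 choroid plexus markers summed to 939 CPM in aRG replicate 1 and 3256 in replicate 2, against at most 74.3 elsewhere, and 6 mesenchyme markers to 390 and 2019 CPM, against at most 352 elsewhere. Interneuron markers summed to at most 16.8 CPM in any library. Libraries numbered 1 stood apart from those numbered 2 on the third principal component, which held 12.7% of the variance, and MALAT1 took a larger share of counts in each library numbered 1 than in its population's library numbered 2, so log2 ratios within each number are given for the members called in N relative to aRG.

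Most of the members were highest in N and lowest in aRG. In N relative to aRG, 7 of the 10 rose (ELAVL3, ELAVL4, CELF2, CELF3, CELF4, CELF5 and CELF6) and none fell, while 4.87% of all genes tested rose and 4.8% fell. The call rule was a Benjamini-Hochberg adjusted p under 0.05 over all genes in edgeR's quasi-likelihood test. The median log2 fold change of the members was 1.96, beside -0.08 over all genes. N relative to bRG gave 6 members that rose (ELAVL3, ELAVL4, CELF2, CELF4, CELF5 and CELF6) and none that fell, with 2.62% of all genes higher and 3.39% lower. The members' median was 1.54, beside -0.11 for all genes. These are bulk libraries, in which fewer cells of a type and less RNA of a gene per cell cannot be told apart.

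Between progenitors, and between N and bIP, the counts were smaller. In bIP relative to aRG, 5 members rose (ELAVL3, ELAVL4, CELF3, CELF4 and CELF6) and none fell, with 1.34% of all genes higher and 1.5% lower, and the median was 1.33 for the members and 0.05 for all genes. In bIP relative to bRG, ELAVL4 alone rose and none fell, with 0.458% of all genes higher and 0.574% lower, and medians of 0.68 for the members and -0.00 for all genes. In N relative to bIP, CELF4 and CELF6 rose and none fell, with 1.06% of all genes higher and 1.48% lower, and medians of 0.41 and -0.10. In bRG relative to aRG no member was called in either direction, nor was any gene called higher (0% of all genes), and 0.00283% were lower. There, 3 members (CELF3, CELF4 and CELF6) had an unadjusted p under 0.05, all with higher levels in bRG, as had 3.73% of all genes in either direction. DESeq2 called 2 of these members, CELF4 and CELF6, and 0.334% of all genes in either direction. The comparisons that name aRG share its libraries, as do those that name N, bIP or bRG, so they are not independent of each other.

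**Figure D1:**
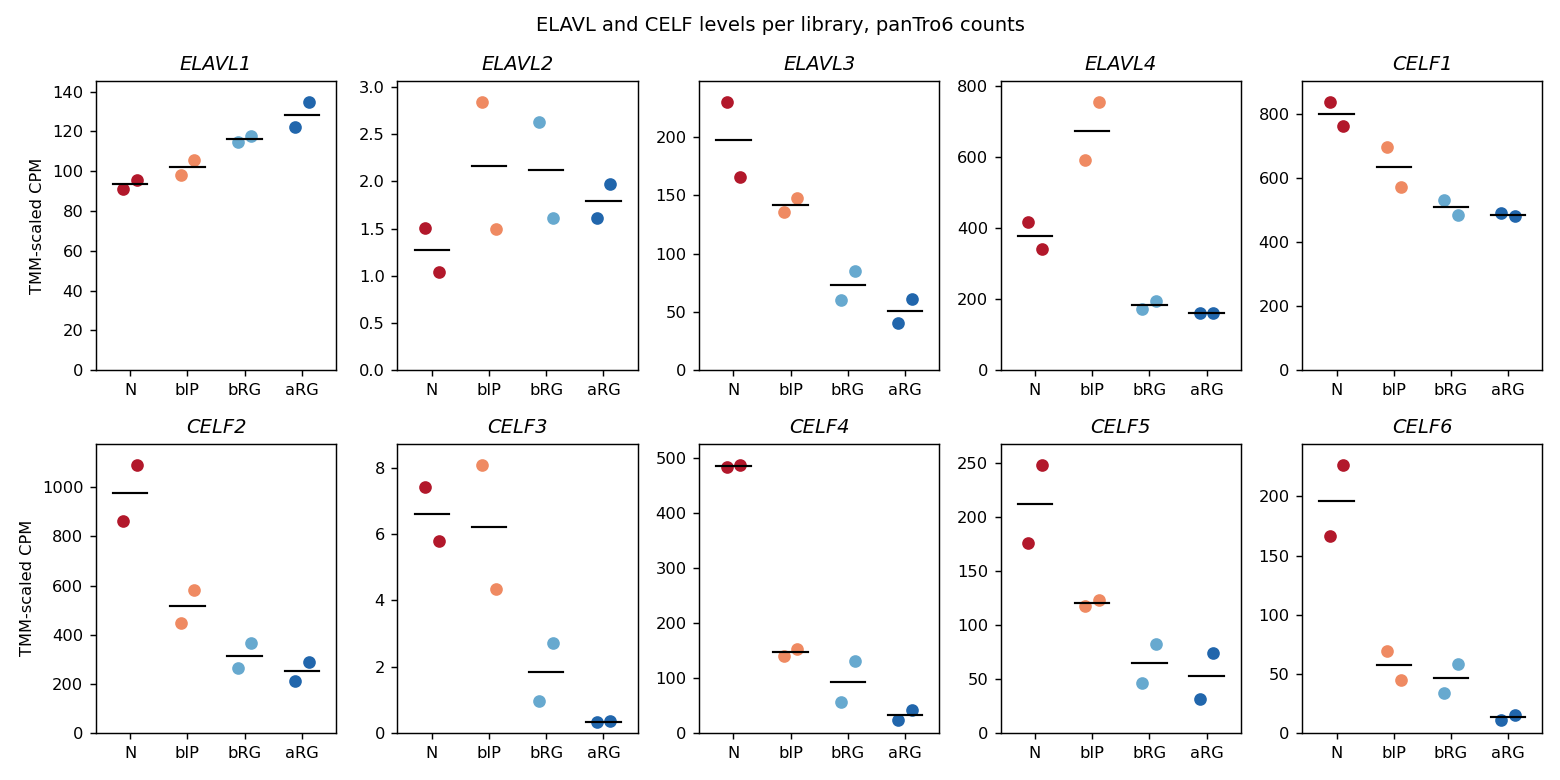
CPM on panTro6 after scaling of the library sizes with TMM (vertical axis, linear, from 0, a scale of its own for each gene) in the 2 libraries of N, bIP, bRG and aRG, from left to right. Points are single libraries and horizontal lines are means of 2. ELAVL3 and CELF4 step down to the right, ELAVL4 peaks in bIP, and ELAVL1 runs the other way.

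ELAVL1, the member made in nearly all cells, had similar levels in all populations, in an order opposite to that of most members. It was at 91.1 and 95.7 CPM in N, 98.3 and 106 in bIP, 115 and 118 in bRG, and 122 and 135 in aRG. The libraries of neighbouring populations did not overlap at any of the 3 steps, and the same order, aRG above bRG above bIP above N, was found on hg38. No difference was called: N relative to aRG gave a log2 fold change of -0.46 (SE 0.23, edgeR adjusted p = 0.283) on panTro6 and -0.57 (SE 0.21, adjusted p = 0.0915) on hg38.

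ELAVL2, a neuronal member, was near the lower limit of detection, with 24 to 81 counts per library. It was at 1.51 and 1.04 CPM in N, 2.84 and 1.49 in bIP, 2.63 and 1.61 in bRG, and 1.61 and 1.98 in aRG. The libraries of bIP, bRG and aRG overlapped, and no order among them could be read. The fitted change in N relative to aRG was -0.49 with an SE of 0.78 (edgeR adjusted p = 0.783), an SE larger than the change itself, so a difference was not detectable at this depth.

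ELAVL3, a neuronal member known as HuC and often used as a marker of early neurons, was at 230 and 166 CPM in N, 136 and 148 in bIP, 60.4 and 85.4 in bRG, and 40.4 and 60.7 in aRG. Both libraries of N and both of bIP were above all 4 radial glia libraries, and the radial glia populations overlapped by a narrow margin. It rose in N relative to aRG by 1.97 on the log2 scale (SE 0.30, edgeR adjusted p = 0.00121), with log2 ratios of 2.51 within number 1 and 1.45 within number 2. It also rose in N relative to bRG (1.44, SE 0.30, adjusted p = 0.0136) and in bIP relative to aRG (1.49, SE 0.30, adjusted p = 0.0191). Without N replicate 1 or bRG replicate 1 the call of N against bRG was lost, with an adjusted p of up to 0.137, and that of bIP against aRG was lost without bIP replicate 1, bIP replicate 2 or aRG replicate 1, with an adjusted p of up to 0.150. The difference between N and bIP was 0.48 (SE 0.29, adjusted p = 0.479), smaller than the test could separate although the libraries did not overlap.

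ELAVL4, known as HuD and studied for its part in neurite growth and in the stability of GAP43 mRNA, had a different pattern, with its highest level in the intermediate progenitors. It was at 418 and 341 CPM in N, 592 and 755 in bIP, 171 and 194 in bRG, and 162 and 160 in aRG. Both bIP libraries were above both N libraries, and all 4 of these were above the 4 radial glia libraries. ELAVL4 rose in bIP relative to bRG by 1.88 (SE 0.25, edgeR adjusted p = 0.0065) and relative to aRG by 2.06 (SE 0.25, adjusted p = 0.00108), and in N relative to aRG by 1.24 (SE 0.24, adjusted p = 0.00591) and relative to bRG by 1.05 (SE 0.24, adjusted p = 0.0230). The log2 ratios of N to aRG were 1.37 within number 1 and 1.09 within number 2.

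The peak of ELAVL4 in bIP was itself not called on panTro6. N relative to bIP gave -0.83 (SE 0.24, edgeR adjusted p = 0.105), with log2 ratios of -0.50 within number 1 and -1.15 within number 2. On hg38 the value was -0.91 (SE 0.23, adjusted p = 0.0473), a call by a narrow margin, and DESeq2 on panTro6 gave an adjusted p of 0.0390. The call of N relative to bRG was lost in 4 of 17 alternatives (without N replicate 1, bRG replicate 1 or bRG replicate 2, and with only these populations fitted), with an adjusted p of up to 0.211.

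CELF1, the broadly made member known for decay of transcripts with GU-rich elements, was not called in any comparison on panTro6. Its levels were 836 and 761 CPM in N, 697 and 573 in bIP, 531 and 485 in bRG, and 490 and 482 in aRG. The N libraries were above all others and the bRG and aRG libraries overlapped. In N relative to aRG the value was 0.72 (SE 0.23, edgeR adjusted p = 0.0700) on panTro6 and 0.69 (SE 0.22, adjusted p = 0.04999, at the threshold) on hg38, so the call turns on the table.

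CELF2, a splicing regulator with a broad distribution and high levels in brain, was at 865 and 1090 CPM in N, 447 and 582 in bIP, 266 and 364 in bRG, and 211 and 290 in aRG. Each N library was above each bIP library, each bIP library above all radial glia libraries, and bRG overlapped with aRG. CELF2 rose in N relative to aRG by 1.96 (SE 0.28, edgeR adjusted p = 0.000713) and relative to bRG by 1.63 (SE 0.28, adjusted p = 0.0043), and both calls were kept in all 17 alternatives. The ratios to aRG within numbers 1 and 2 were 2.04 and 1.91. The differences of N from bIP (0.93, SE 0.27, adjusted p = 0.110) and of bIP from aRG (1.04, SE 0.27, adjusted p = 0.0713) missed the threshold, and the second passed it on hg38 (1.10, adjusted p = 0.0326).

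CELF4, a mainly neuronal member that in mice binds many synaptic mRNAs and whose loss gives seizures, had libraries without overlap between any populations, although not every step was called. It was at 483 and 488 CPM in N, 141 and 153 in bIP, 56.8 and 130 in bRG, and 22.6 and 40.8 in aRG. The bRG libraries lay far apart, and bRG replicate 2 came close to bIP. CELF4 rose in N relative to aRG by 3.93 (SE 0.42, edgeR adjusted p = 9.67e-05), relative to bRG by 2.38 (SE 0.39, adjusted p = 0.00345) and relative to bIP by 1.73 (SE 0.38, adjusted p = 0.0328), and in bIP relative to aRG by 2.21 (SE 0.39, adjusted p = 0.0087). The call against bIP was lost without N replicate 2, bIP replicate 1 or bIP replicate 2, with an adjusted p of up to 0.132, and that of bIP against aRG without aRG replicate 1 (adjusted p = 0.0527). The steps between bIP and bRG (0.65, SE 0.37, adjusted p = 0.712) and between bRG and aRG (1.56, SE 0.38, adjusted p = 0.661) missed the threshold. The log2 ratios of N to aRG were 4.42 within number 1 and 3.58 within number 2.

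CELF5, another member known mainly from the nervous system, was at 176 and 248 CPM in N, 117 and 123 in bIP, 46.8 and 82.8 in bRG, and 31.7 and 74.4 in aRG. The N libraries were above both bIP libraries, these above all radial glia libraries, and bRG and aRG overlapped widely. It rose in N relative to aRG by 2.00 (SE 0.40, edgeR adjusted p = 0.0069) and relative to bRG by 1.71 (SE 0.40, adjusted p = 0.0247), and the log2 ratios of N to aRG were 2.47 within number 1 and 1.74 within number 2. The call against bRG was lost without N replicate 2 or bRG replicate 1, with an adjusted p of up to 0.160.

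CELF3 and CELF6 depended on the genome used for counting and are given on both. CELF3, a splicing activator of the nervous system, was at 7.42 and 5.78 CPM in N, 8.08 and 4.33 in bIP, 0.973 and 2.71 in bRG, and 0.315 and 0.354 in aRG on panTro6, from 8 to 208 counts per library. On hg38 the same libraries gave 125 and 73.0 CPM in N, 101 and 71.2 in bIP, 14.0 and 29.1 in bRG, and 6.29 and 12.1 in aRG, from 75 to 1608 counts. In both tables N and bIP overlapped and stood above bRG, and bRG stood above aRG. CELF3 rose in N relative to aRG by 4.28 (SE 0.77, edgeR adjusted p = 0.00329) on panTro6 and 3.42 (SE 0.47, adjusted p = 0.000638) on hg38, and in bIP relative to aRG by 4.19 (SE 0.77, adjusted p = 0.0112) and 3.22 (SE 0.47, adjusted p = 0.00276). On panTro6 the call of bIP was lost without bIP replicate 1 or either aRG replicate, with an adjusted p of up to 0.0724. In N relative to bRG it was called on hg38 (2.20, SE 0.45, adjusted p = 0.00943) and not on panTro6 (1.84, SE 0.68, adjusted p = 0.159), and likewise in bIP relative to bRG (2.00, SE 0.45, adjusted p = 0.0408 on hg38, and 1.75, SE 0.68, adjusted p = 0.396 on panTro6). On panTro6 the log2 ratios of N to aRG were 4.56 within number 1 and 4.03 within number 2.

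CELF6, a member of the nervous system reported to act in the brain on mRNA stability and translation, was at 166 and 226 CPM in N, 69.4 and 45.0 in bIP, 33.9 and 58.2 in bRG, and 11.1 and 15.1 in aRG on panTro6, from 283 to 5246 counts per library. On hg38 it was at 13.8 and 6.52 CPM in N, 5.82 and 5.09 in bIP, 2.80 and 2.42 in bRG, and 0.503 and 0.179 in aRG, from 3 to 178 counts. N was highest and aRG lowest in both, while bIP and bRG overlapped on panTro6 and stood apart on hg38. CELF6 rose in N relative to aRG by 3.90 (SE 0.38, edgeR adjusted p = 5.24e-05) on panTro6 and 4.92 (SE 0.76, adjusted p = 0.00122) on hg38, with panTro6 log2 ratios of 3.90 within number 1 and 3.91 within number 2. In bIP relative to aRG it rose by 2.13 (SE 0.35, adjusted p = 0.00647) on panTro6 and 4.02 (SE 0.75, adjusted p = 0.00943) on hg38. The calls in N relative to bIP (1.78, SE 0.35, adjusted p = 0.0176) and relative to bRG (2.09, SE 0.35, adjusted p = 0.00391) were made on panTro6 only: hg38 gave 0.90 (SE 0.62, adjusted p = 0.464) and 1.96 (SE 0.64, adjusted p = 0.0732). The call against bIP was also lost without N replicate 2 or bIP replicate 2.

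**Figure D2:**
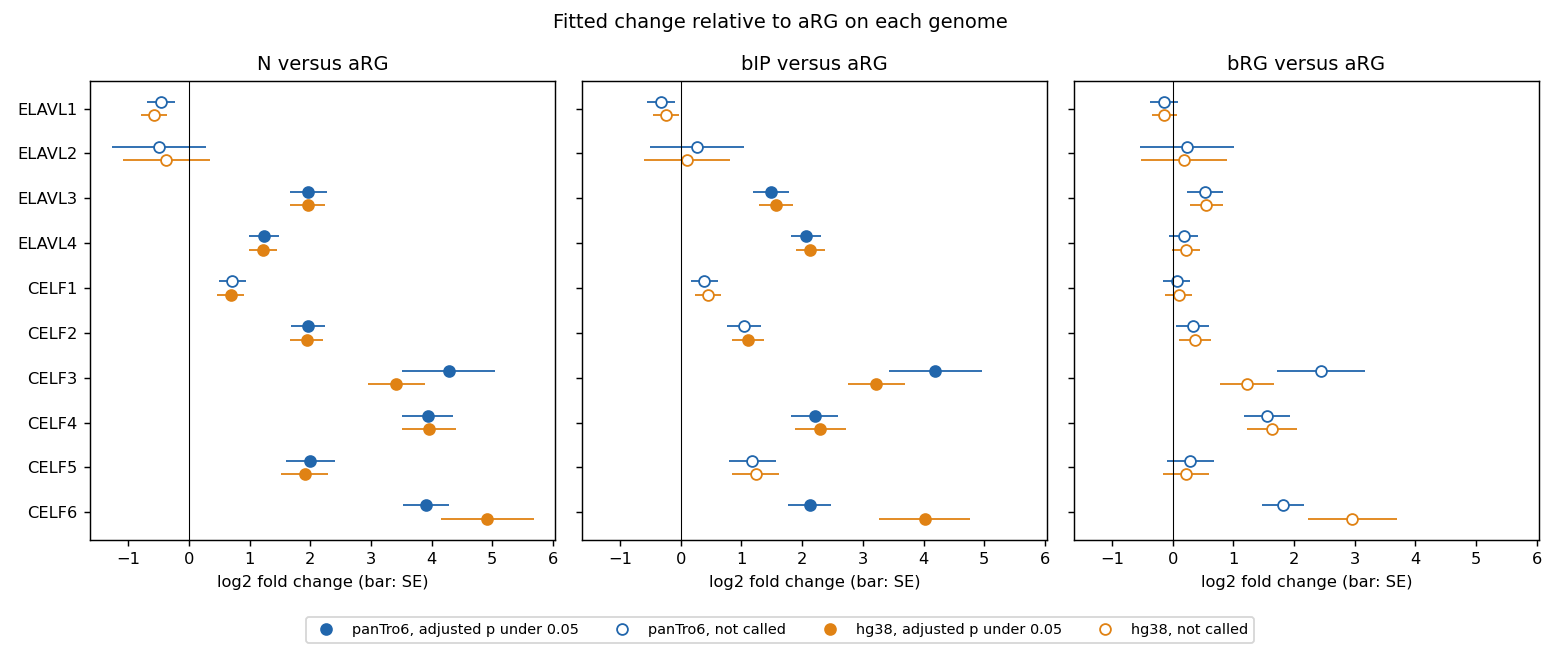
Fitted log2 fold change relative to aRG (horizontal axis, bars are SE) for N, bIP and bRG, from left to right, on panTro6 (blue) and hg38 (orange). Filled points have an edgeR adjusted p under 0.05. In N, 7 members are called on panTro6, and in bRG none is called on either genome.

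The size of the genome difference was read from the same 8 libraries, with 1 CPM added to both values. CELF3 was higher on hg38 in all 8, with a median log2 ratio of hg38 over panTro6 of 3.37 (2.49 to 3.96). CELF6 was lower on hg38 in all 8, with a median of -3.38 (-4.89 to -2.97). Without the added CPM, the median fold was 15.1 higher on hg38 for CELF3 and 17.2 higher on panTro6 for CELF6. The other 8 members had medians of -0.02 to 0.23, beside 0.21 over the 15081 shared genes with at least 1 CPM. A log2 ratio above 1 in all 8 libraries was found for 5.83% of these genes and a ratio below -1 for 0.153%, so CELF6 is 1 of 23 genes of the second kind. Over the 8 libraries the log2 levels of the genomes correlated with r of 0.982 for CELF3 and 0.896 for CELF6, a description over libraries counted on both genomes. In the RefSeq annotation of a different chimpanzee assembly, NHGRI_mPanTro3-v2.0, the locus of CELF3 overlaps that of RIIAD1, which was at 1.56 to 10.1 CPM on panTro6 and 1.88 to 11.7 on hg38, and no other gene overlaps CELF6. The gene models behind the tables were not used here, and the cause of either difference was not tested.

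**Figure D3:**
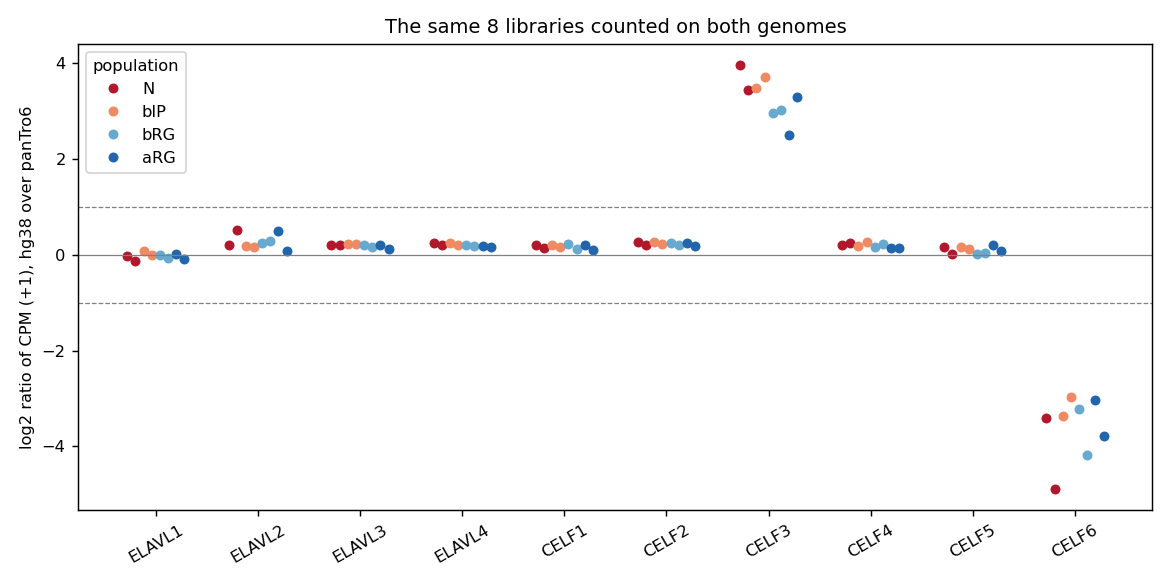
Log2 ratio of CPM on hg38 over CPM on panTro6 (1 CPM added to both) for each member, with a point per library. CELF3 lies at 2.49 to 3.96 and CELF6 at -4.89 to -2.97, while the other 8 members lie near 0.

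The balance within each family differed between populations, as log2 ratios of counts within a library. These compare a ratio between populations, not the level of one gene with another, since transcript lengths differ. The log2 ratio of ELAVL3 to ELAVL1 averaged 1.06 in N, 0.47 in bIP, -0.69 in bRG and -1.37 in aRG. That of ELAVL4 to ELAVL1 averaged 2.01 in N, 2.71 in bIP, 0.65 in bRG and 0.33 in aRG, so it too was highest in bIP. In the CELF family the ratio of CELF2 to CELF1 averaged 0.28 in N, -0.31 in bIP, -0.71 in bRG and -0.97 in aRG, and that of CELF4 to CELF1 averaged -0.72 in N, -2.11 in bIP, -2.56 in bRG and -4.00 in aRG. Of these 4 ratios, that of CELF4 spanned the widest range between populations. Outside these 4, the ratio of CELF3 to CELF1 spanned more, from a mean of -6.74 in bIP to -10.5 in aRG on panTro6, where CELF3 had few counts. On hg38 it spanned less, from -3.11 in bIP to -5.95 in aRG. The ratio of CELF6 to CELF1 ran from -2.04 in N to -5.23 in aRG on panTro6. Its hg38 means ran from -6.52 in N to -10.8 in aRG, where CELF6 had few counts.

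**Figure D4:**
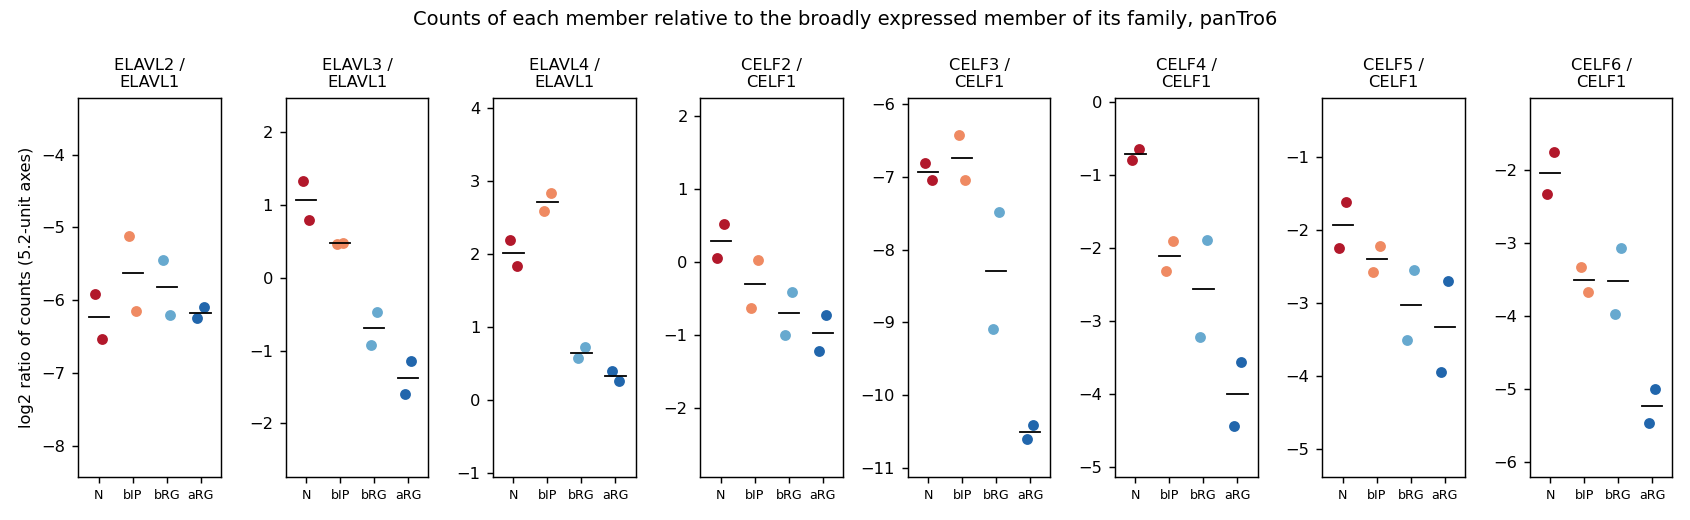
Log2 ratio, within each library, of the counts of each other member to those of ELAVL1 or CELF1 on panTro6, for N, bIP, bRG and aRG from left to right (points are libraries, lines are means of 2, and all axes span the same range). ELAVL4 over ELAVL1 peaks in bIP at a mean of 2.71, and CELF4 over CELF1 is lowest in aRG at a mean of -4.00.

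The difference between the radial glia populations needs its marker values beside it. CELF3, CELF4 and CELF6 were fitted at 2.44 (SE 0.73), 1.56 (SE 0.38) and 1.81 (SE 0.35) higher on the log2 scale in bRG than in aRG, with edgeR adjusted p of 0.919, 0.661 and 0.508 on panTro6. On hg38 the values were 1.22 (SE 0.45), 1.63 (SE 0.41) and 2.96 (SE 0.74), with adjusted p of 0.910, 0.508 and 0.508. DESeq2 gave adjusted p of 0.0406 for CELF4 and 0.00262 for CELF6. Without bRG replicate 1, edgeR called both, at 0.0157 for CELF4 and 0.0155 for CELF6, with values of 2.01 and 2.13. Without bRG replicate 2 the values were 0.81 for CELF4 and 1.35 for CELF6, each with an adjusted p of 1. The neuron markers summed to 1052 and 1737 CPM in bRG and to 707 and 983 in aRG, with the higher value in replicate 2 of each, and CELF4 was likewise higher in replicate 2 of each. CELF6 was higher in replicate 2 of each on panTro6 and lower there on hg38. The 9 neuron markers tested had a median log2 fold change of 1.05 in bRG relative to aRG. The part of these transcripts in the members' values was not tested. The choroid plexus and mesenchyme transcripts of aRG, highest in replicate 2, stand beside every comparison with aRG, and their part in the members' values was not tested.

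Likeness was measured as Pearson's r of log2 CPM, with 1 CPM added, over the 8 libraries against 10105 genes with a mean of at least 10 CPM. It is a description, since the libraries fall into 4 populations and all genes share them. ELAVL3 was most like RBM24 (r = 0.993), NPTXR and RASGEF1B, and ELAVL4 most like CACNA1G (0.993), a T-type calcium channel gene, and like KDM6B. CELF2 was most like ZNF300 (0.997), RABGAP1 and ZNF570, CELF4 most like SLIT1 (0.996), an axon guidance ligand, AP3B2 and NSG1, and CELF6 most like XKR4 (0.996), DMTN and SCN3B. CELF1 was most like ZNF585A (0.994), CELF3 most like IQSEC3 (0.989), CELF5 most like RCAN1 (0.991), ELAVL1 most like TIMP1 (0.989) and ELAVL2 most like RN7SL336P (0.946). The values of ELAVL2 (24 to 81 counts per library) and CELF3 (8 to 208) rest on few counts. Among the members themselves, CELF4 and CELF6 were nearest (0.978), then CELF2 and CELF5 (0.968), CELF2 and CELF4 (0.965) and ELAVL3 and CELF4 (0.951). ELAVL4, with its peak in bIP, reached at most 0.838 with another member (CELF3), and ELAVL1 had an r of -0.948 with CELF1.

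Other RNA-binding proteins were examined beside the members, most of them chosen for binding AU-rich or GU-rich stretches or for acting against CELF proteins in splicing. They also included the poly(C)-binding proteins PCBP1 and PCBP2. Of 16 tested from a list of 17, 2 were called in N relative to aRG, both lower, beside 4.87% of all genes higher and 4.8% lower, and their median was -0.27. ZFP36L1, which recruits deadenylases to AU-rich transcripts, was at 15.8 and 10.3 CPM in N, 61.9 and 56.1 in bIP, 793 and 398 in bRG, and 1105 and 636 in aRG. Each step down from radial glia to bIP and from bIP to N was without overlap, and the log2 fold change of ZFP36L1 in N was -6.06 relative to aRG (edgeR adjusted p = 6.96e-06), -5.51 relative to bRG (adjusted p = 1.77e-05) and -2.18 relative to bIP (adjusted p = 0.0100). ZFP36L2, of the same family, was also called lower in N than in aRG, by a narrow margin (-3.77, SE 1.07, edgeR adjusted p = 0.0449). Its N libraries held only 83 and 2 counts. MBNL1, a splicing factor known to oppose CELF1 at shared exons, averaged 72.1 ± 5.45 CPM in N and 38.6 ± 4.52 in aRG (SD, n = 2 each) and missed the threshold (0.90, edgeR adjusted p = 0.0526), while MBNL2 (0.48, adjusted p = 0.555) and MBNL3 (-0.41, adjusted p = 0.799) were further from it. PCBP1, a poly(C)-binding protein gene, was listed at 0 in every library on panTro6 and not tested there, while hg38 gave it 11 to 40 counts per library.

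Transcripts described in the literature as bound by ELAVL proteins were read as 2 lists, divided by role. Of 13 with neuronal or differentiation roles, 5 rose and 1 fell in N relative to aRG, beside 4.87% of all genes higher and 4.8% lower, with a median of 1.48. MAPT, the gene of tau, averaged 999 ± 71.2 CPM in N, 203 ± 57.7 in bIP, 254 ± 139 in bRG and 90.5 ± 42.9 in aRG (SD, n = 2 each) and was 3.46 higher in N than in aRG (edgeR adjusted p = 0.000314). GAP43, a growth cone protein and the best known target of ELAVL4, averaged 660 ± 108 CPM in N, 205 ± 52.9 in bIP, 203 ± 120 in bRG and 123 ± 73.4 in aRG, and was 2.42 higher in N than in aRG (adjusted p = 0.00528). Unlike ELAVL4, these 2 transcripts had no peak in bIP, but others of the 13 did. MARCKS averaged 787 CPM in bIP and 345 in N, and was called lower in N than in bIP (-1.19, edgeR adjusted p = 0.0492). NEUROD1, NOVA1 and SATB1 also averaged highest in bIP, without a call between N and bIP. In N relative to bIP, 2 of the 13 rose and 1 fell, beside 1.06% of all genes higher and 1.48% lower. CAMK2A, a synaptic kinase gene (3.01), ACHE, the acetylcholinesterase gene (2.42), and MYCN (1.52) also rose in N relative to aRG. CDKN1A, a cell cycle inhibitor gene that averaged 0.103 CPM in N and 2.42 in aRG on panTro6, fell. Its fall rests on few panTro6 counts, 2 and 3 in the N libraries and 61 and 83 in those of aRG. On hg38 the same libraries gave 25 and 37 counts in N and 257 and 256 in aRG, so its level depended on the genome. MYCN, CDKN1A, MARCKS, NEUROD1, NOVA1 and SATB1 are named after their values were seen.

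Of 16 tested from 17 reported targets with roles in growth, the cell cycle or survival, 5 were called in N relative to aRG, all lower, beside 4.8% of all genes lower and 4.87% higher, with a median of -0.05. CCNB1, a mitotic cyclin gene, averaged 5.85 ± 1.49 CPM in N, 23.6 ± 2.84 in bIP, 115 ± 6.48 in bRG and 280 ± 22.4 in aRG (SD, n = 2 each), and fell by 5.58 in N relative to aRG (edgeR adjusted p = 1.79e-06). CCNA2, also a cyclin gene (-2.57), FOS, an immediate early gene (-4.03), and MSI1, an RNA-binding protein gene of neural stem cells (-1.48), also fell, and MSI1 is named after its value was seen. The 5 mitotic markers, of which CCNB1 is also one, summed to 32.0 to 33.7 CPM in N and to 2349 to 2671 in aRG. CCND1 of this list was listed at 0 in every library on panTro6 and was not tested there, while hg38 gave it 58 to 872 counts per library.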

How the data were processed

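Bulk RNA was sequenced from 8 libraries of 4 sorted populations (2 each) after Smart-seq2 type amplification and fragmentation with a transposome, per the labels' protocols. Neither step marks the strand of origin, and no molecular identifiers are named, so counts include PCR copies. The authors deposited whole-number read counts per gene symbol in 2 tables, on panTro6 and hg38, and used STAR, per the submitters' processing notes. STAR's version, the annotation, the counter and whether strand was used are not given in the sources here. Over shared symbols the panTro6 totals were 1.70 to 1.74 times those on hg38, so both mates of a pair may have been counted on panTro6, and halved counts were tested too. A row without a gene name (0.00545% to 0.00771% of counts) was left out.

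Counts were filtered with filterByExpr, scaled with TMM factors and fitted in 1 model of population over all 8 libraries with edgeR 4.0.16 (glmQLFit, glmQLFTest; R 4.3.3). The common dispersion corresponded to a biological coefficient of variation of 0.629. All tests were two-sided, with Benjamini-Hochberg adjustment over 35382 genes in each of 6 comparisons. SEs were derived from the F statistic. The procedure was tested on simulated data for N versus aRG. It recovered 99 of 100 genes set to an absolute log2 change of 3 and 36 of 100 set to 1.5, with 5 false calls. Many changes of the smaller size thus went without a call. The members and lists were chosen with earlier results of these data known. Named genes were all members, at most 4 of each other list by adjusted p in N versus aRG, MBNL1 to MBNL3, and the 3 most alike genes per member with a regular symbol; some genes chosen by this rule are not reported here. Levels are scaled CPM, and the ratios between genomes use CPM over all named rows. Alternatives were DESeq2 1.42.0, other scaling, filters, gene sets and genome, only the populations compared, a replicate block, and leaving out each library.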

Additional observations from a re-analysis of the deposited data

How the results depend on the processing

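Of the 21 member values called on panTro6, 0 reversed in 17 alternatives and 12 kept their call in all of them. In bRG relative to aRG, 2 members were called by DESeq2 and 2 without a filter on low counts, beside 118 and 215 of all genes. On hg38, 2 (ELAVL4 and CELF3) were called in bIP relative to bRG, beside 484 of all 16353 genes tested there. With each library left out in turn, the members called ranged 0 to 2 (N versus bIP, with 0 without N replicate 2 or bIP replicate 2 and 1 without bIP replicate 1), 3 to 6 (N versus bRG, with 3 without bRG replicate 1), 2 to 5 (bIP versus aRG, with 2 without aRG replicate 1 and 3 without bIP replicate 1) and 0 to 2 (bRG versus aRG, with 2 without bRG replicate 1), and stayed at 7 (N versus aRG) and 1 (bIP versus bRG). Replicate numbers are shared by the populations, but the labels do not say that a number marks a culture or day, and the differences between same-numbered libraries correlated at 0.123 to 0.266 over the 6 pairs of populations. With the replicate block the members called were 4 (N versus bIP), 2 (bIP versus bRG) and 1 (CELF6, bRG versus aRG), and within 1.5 times the unblocked count elsewhere. Calls over all genes in these 3 comparisons rose as well, to 2165, 1121 and 39, from 900, 365 and 1 without the block. Values without a call that reversed were those of CELF3 in N versus bIP (-0.035 at a minimum of 5 CPM) and ELAVL2 in bIP versus bRG (-0.084 on hg38). Without a library they ranged, with a change of sign, from -0.29 to 0.62 (CELF3, N versus bIP), -0.51 to 0.42 (ELAVL2, bIP versus bRG), -0.27 to 0.66 (ELAVL2, bIP versus aRG), -0.18 to 0.53 (ELAVL2, bRG versus aRG), -0.042 to 0.75 (CELF6, bIP versus bRG), -0.022 to 0.11 (CELF1, bRG versus aRG) and -0.24 to 1.04 (CELF5, bRG versus aRG). The cause was not tested.

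Genes called over the whole table numbered 900 (N versus bIP), 2128 (N versus bRG), 3421 (N versus aRG), 365 (bIP versus bRG), 1002 (bIP versus aRG) and 1 (bRG versus aRG). DESeq2 gave 2501, 3803, 5221, 1178, 2303 and 118 in the same order. Without the filter on low counts they were 2264, 3280, 1187, 2159 and 215, and with the replicate block 2165, 3594, 1121, 2122 and 39, N versus aRG left out of both. With only the populations compared they were 543 (N versus bIP), 1392 (N versus bRG) and 0 (bRG versus aRG), which was also 0 at a minimum of 5 CPM. Leaving out a library gave 415 to 1265, 1190 to 2313, 2382 to 3540, 140 to 642, 582 to 1428 and 1 to 85. The minimum of 5 CPM moved the median of all genes by -0.13 in N versus bIP and N versus bRG. The genome ratio of CELF6 was -3.89 with 0.1 CPM added and -3.69 over shared symbols, and that of CELF3 was 3.83 and 3.21. ELAVL2 on both genomes, CELF3 on panTro6 and CELF6 on hg38 rest on few counts, which limits their precision. The lone library of a population is assumed to vary like the others when its partner is left out.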

Other observations

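Rows named as antisense or divergent partners of the members were also in the panTro6 table. CELF2-AS2 averaged 82.5 ± 11.2 CPM in N, 33.3 ± 3.48 in bIP, 17.0 ± 7.99 in bRG and 13.8 ± 3.39 in aRG (SD, n = 2 each). It was 2.58 higher in N than in aRG on the log2 scale (edgeR adjusted p = 0.00082) and 2.28 higher than in bRG (adjusted p = 0.0035). CELF2 itself was 1.96 and 1.63 higher in these comparisons. Without strand, reads from any stretch that the pair shares cannot be told apart, and whether the pair overlaps on panTro6 was not examined. CELF2-AS1, CELF2-DT and ELAVL4-AS1 were below 7 CPM in every library and were not called in N relative to aRG.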
